A study of Mus musculus with 8 samples.

Results

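The TRIM (tripartite motif) genes encode a large family of proteins, most of which are ubiquitin ligases. Members were taken as every gene symbol in the files made of Trim, a number and an optional letter, which gave 59 of 17364 symbols. RNA was sequenced from macrophages cultured out of bone marrow (BMDMs) of Sept2C111A mice (4 libraries) and of wild-type mice (4 libraries). Per its name, the allele puts alanine in place of a cysteine of septin 2, a GTP-binding protein of the cytoskeleton. Mutant and wild-type cells alike were exposed to TNF-α (30 ng/ml, 24 h), and untreated cells were not analysed here. The age and strain of the mice are not given. Nothing in the labels says that the libraries of a group came from separate mice or cultures, so every p-value covers the spread between the samples at hand, which may be technical.

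A TRIM protein carries a RING domain, which binds the ubiquitin-loaded E2 enzyme, then B-box domains and a coiled coil through which the proteins pair. The carboxy-terminal domain selects the target, and the PRY-SPRY (B30.2) domain is the most common one. In macrophages several PRY-SPRY members are induced by interferon and act on incoming viruses or on the pathways that sense nucleic acids, while others modify components of NF-κB signalling.

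The genotypes differed little in Trim RNA. Of the 59 symbols, 42 passed the filter on low counts and were tested, and 17 did not. Trim5 and Trim34a rose in Sept2C111A libraries, by 1.31-fold and 1.37-fold, 0 members fell, and 40 were not called at an adjusted p under 0.05 in edgeR. In all, 11 of the 42 had an unadjusted p under 0.05, 8 with a positive and 3 with a negative log2 fold change. That is 26.2% of them, where 24.8% of all tested genes had such a p. The 2 calls are 4.76% of the tested members, where 6.46% of all 12462 tested genes were called (3.43% higher and 3.03% lower). The share of members was thus not above that of all genes. The median log2 fold change was 0.07 over the tested members and 0.01 over all tested genes, with 26 positive and 16 negative values among the members. The members' log2 fold changes lay between -0.40 and 0.56. For 40 of the 42 the 95% interval lay within a 2-fold change in either direction, and for 28 it lay within 1.5-fold. Groups did not overlap for 6 members, 14.3% of the tested ones, where 16.9% of all tested genes had groups that did not overlap. DESeq2 and limma voom each called the same 2 members. In edgeR 0 members were called with the replicate number as a block, without Sept2C111A library 2, or without wild-type library 1, 3 or 4. In these fits 2.12% to 3.96% of all genes were called. With 1 library left out, the count over all genes ran from 266 to 2077, beside 805 with all libraries.

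**Figure D1:**
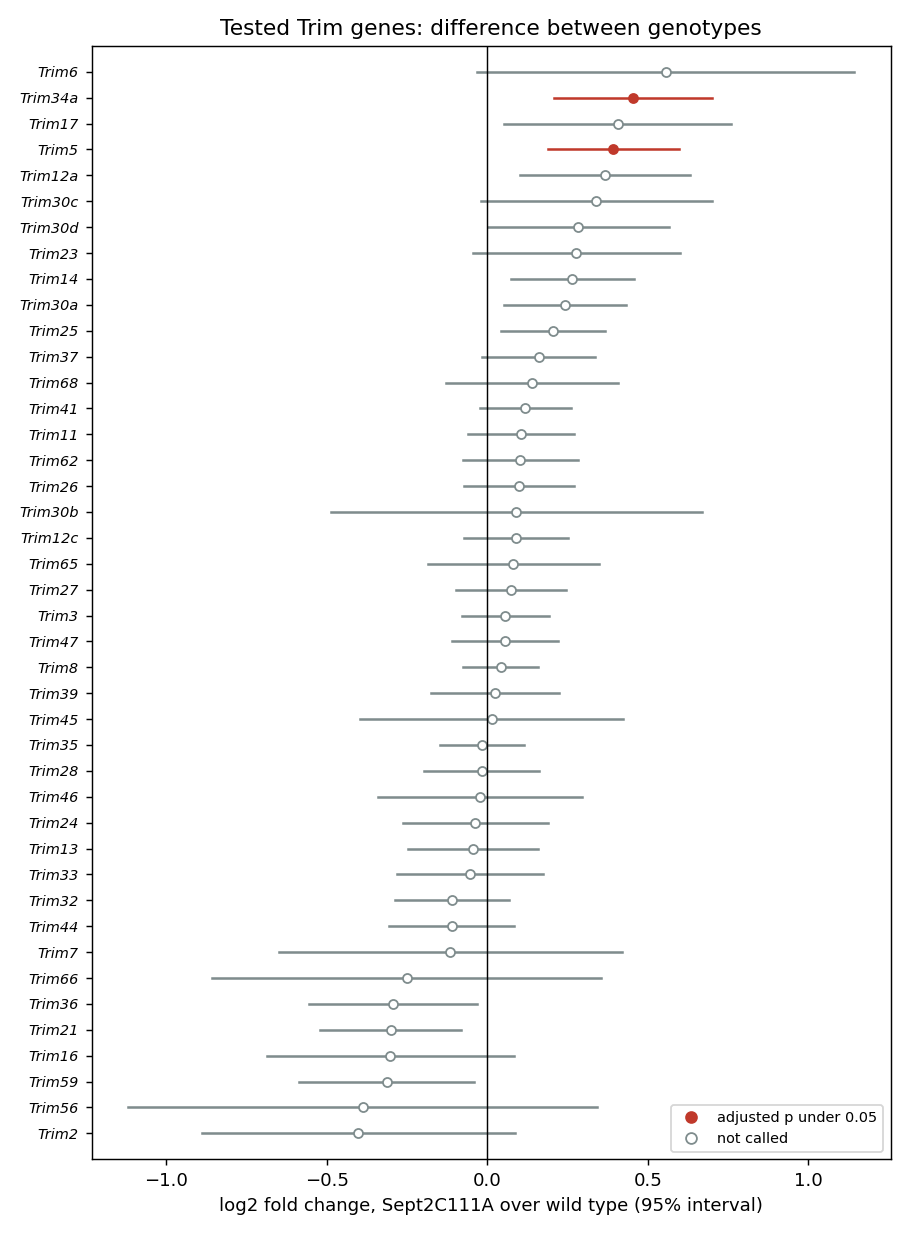
Log2 fold change of Sept2C111A over wild type for the 42 tested Trim genes, with the 95% interval from the edgeR fit; filled points mark an adjusted p under 0.05. Trim34a and Trim5 are the filled points, and values run between -0.40 (Trim2) and 0.56 (Trim6).

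**Figure D2:**
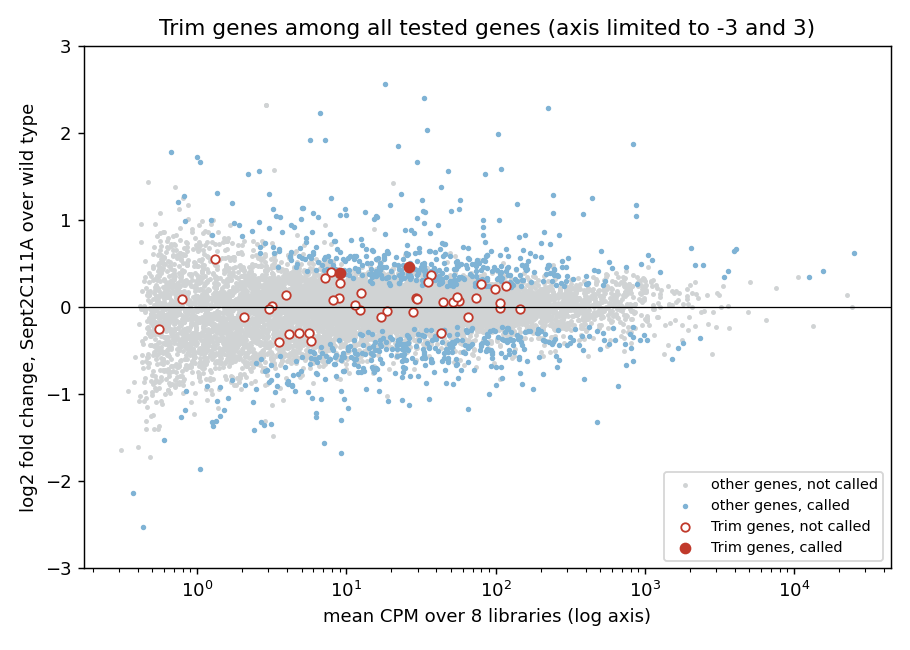
Log2 fold change against mean CPM (log axis) for all 12462 tested genes, with Trim genes as circles and called genes in colour; 3 genes lie outside the plotted range. The Trim genes lie within the dense band of genes near 0.

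Totals were 19543958 to 21288493 expected counts in Sept2C111A libraries and 20662929 to 20827160 in wild-type libraries. Trim genes together took 0.130% to 0.146% of the counts in Sept2C111A libraries and 0.133% to 0.144% in wild-type libraries. Septin2, the gene that carries the allele, measured 188 ± 18.7 CPM (counts scaled by the TMM-normalised library size) in Sept2C111A and 226 ± 7.43 CPM in wild-type libraries (mean ± SD, n = 4 each, as for every ± below). Its adjusted p of 0.063 in edgeR did not pass, and gene counts do not show the altered codon. On the first principal component, with 45.1% of the variance, Sept2C111A libraries 2 and 3 lay at 28.2 and 36.6 and libraries 1 and 4 at 0.87 and -1.97, with wild-type libraries between -19.4 and -11.2. The spread was also unequal, with a biological coefficient of variation of 0.138 among Sept2C111A and 0.0603 among wild-type libraries. All 6 macrophage markers were present, with a summed level of 19031 to 20689 CPM in Sept2C111A and 21022 to 22787 CPM in wild-type libraries, and none of them was called. Lyz2 made up most of the sum, with a mean of 12366 CPM in Sept2C111A and 14365 CPM in wild-type libraries. The means of Adgre1 and Itgam were also lower in Sept2C111A libraries. Cd68 (2184 against 1957 CPM) and Mertk (65.3 against 52.0 CPM) had higher means there, and Csf1r had 3237 against 3226 CPM. The 6 stromal markers summed to 2723 to 3508 CPM in Sept2C111A and 3468 to 4521 CPM in wild-type libraries, and Col1a1 was called lower (1545 ± 168 CPM in Sept2C111A and 2056 ± 257 CPM in wild-type libraries). None of the markers found was at 0 in every library. The 4 B cell and plasma cell markers together stayed at or under 0.191 CPM in every library, and only 1 of 5 T and NK cell markers was found in the files, at or under 0.0946 CPM. Neutrophil, dendritic cell and endothelial markers each summed to at most 5.63 CPM in any library, and the endothelial marker Pecam1 was called higher (4.02 ± 0.216 CPM in Sept2C111A and 2.92 ± 0.0968 CPM in wild-type libraries). The part of other cells in the Trim values was not tested. In bulk RNA, fewer cells of a type and less RNA per cell cannot be told apart.

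Trim5, whose primate counterpart blocks incoming retroviral capsids, measured 10.5, 10.6, 10.1 and 9.69 CPM in Sept2C111A libraries 1 to 4, against 7.68, 8.68, 7.03 and 7.73 CPM in wild-type libraries 1 to 4. Every Sept2C111A library was above every wild-type library. The gene spans 104263386 to 104288254 of chromosome 7 (mm10). On the log2 scale it rose by 0.39 (SE 0.093, 95% interval 0.19 to 0.60, adjusted p 0.032 in edgeR). Over its log2 CPM an exact two-sided permutation test had p = 0.0286, and no smaller p can arise with 4 against 4. Groups that do not overlap in log2 CPM always give this p, and 16.9% of all tested genes did not overlap in CPM.

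Trim34a, a PRY-SPRY member next to Trim5, measured 27.9, 37.8, 29.4 and 25.9 CPM in Sept2C111A libraries, against 21.6, 23.1, 20.3 and 23.1 CPM in wild-type libraries. The groups again did not overlap, and Sept2C111A library 2 was the highest. The gene spans 104244448 to 104262244 of chromosome 7. Its RNA rose by 0.46 on the log2 scale (SE 0.11, 95% interval 0.21 to 0.70, adjusted p 0.036 in edgeR, exact two-sided permutation p 0.0286). Both calls were lost when certain single libraries were left out. The call of Trim5 was lost without Sept2C111A library 1 or 2 or wild-type library 1, 3 or 4 (adjusted p 0.056 to 0.11 in edgeR). That of Trim34a was lost without Sept2C111A library 2 or any single wild-type library (adjusted p 0.068 to 0.13 in edgeR). With 1 library left out, the log2 fold change ran from 0.35 to 0.46 for Trim5 and from 0.34 to 0.53 for Trim34a. Of all genes, 2.12% to 3.77% were called without 1 wild-type library. The share was 2.86% without Sept2C111A library 2 and 7.76% without library 1, beside 6.46% with all libraries. Without Sept2C111A libraries 2 and 3 together, 0 members were called in edgeR, where 3.86% of all genes were. The log2 fold changes were then 0.38 for Trim5 and 0.29 for Trim34a.

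Close copies limit how well these values belong to 1 gene. In GENCODE transcripts, 36.3% of the 50-base windows of Trim5 also occur in another gene, most often in Trim12c (23.5%), and 39.8% of those of Trim34a occur in Trim34b. How reads from such windows were divided between the copies is not stated, so the separate values of these genes are uncertain. Trim34b itself had 0 to 7 counts per Sept2C111A library and 0 to 2 per wild-type library, with 7 in Sept2C111A library 2.

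Trim5 and Trim34a are shown here with the sequence at their transcript starts, because they are the called members and both hold the letters of the interferon-stimulated response element, the site bound by the interferon-activated factor ISGF3 and by interferon regulatory factors. The letters searched were GAAA, any 2 bases and GAAA, which read TTTC, any 2 bases and TTTC on the other strand; both strands were searched, and capitals mark the matches. Each stretch holds 250 bases before and 50 bases after the start (RefSeq, GRCm38.p6), written on the gene's own strand. The Trim5 stretch is at chr7:104288057-104288356 on the minus strand, and that of Trim34a is at chr7:104244207-104244506 on the plus strand.
Trim5: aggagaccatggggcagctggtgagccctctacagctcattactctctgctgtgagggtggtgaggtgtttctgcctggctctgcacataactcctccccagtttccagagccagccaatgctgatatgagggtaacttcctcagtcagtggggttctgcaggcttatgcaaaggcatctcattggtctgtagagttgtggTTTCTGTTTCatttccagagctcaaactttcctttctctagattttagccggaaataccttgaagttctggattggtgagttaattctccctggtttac
Trim34a: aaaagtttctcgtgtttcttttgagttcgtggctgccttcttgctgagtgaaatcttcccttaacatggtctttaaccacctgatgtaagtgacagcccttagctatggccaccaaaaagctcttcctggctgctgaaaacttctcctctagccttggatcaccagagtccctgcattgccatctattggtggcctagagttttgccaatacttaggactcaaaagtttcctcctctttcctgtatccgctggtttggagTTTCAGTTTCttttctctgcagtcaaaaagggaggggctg

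In Trim5 the match begins 49 bases before the table's start, and in Trim34a 10 bases after it. The same letters occur in 9 of the 32 tested members with an entry in the promoter table, and in 3.93% of the 9986 tested genes with an entry. Over all 32851 entries of the table, 3.44% hold them. The windows of the other members with a match were added after the values were seen, and they show how alike the sites are.
Trim12a: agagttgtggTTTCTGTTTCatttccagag
Trim12c: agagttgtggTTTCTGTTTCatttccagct
Trim30a: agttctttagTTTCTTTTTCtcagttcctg
Trim30d: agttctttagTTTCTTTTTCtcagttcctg
Trim21: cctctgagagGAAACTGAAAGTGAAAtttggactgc
Trim26: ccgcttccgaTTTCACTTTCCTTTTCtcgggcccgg
Trim2: tcagctttggTTTCCTTTTCtctaagacag

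These windows lie at chr7:104315466-104315495 for Trim12a, chr7:104353359-104353388 for Trim12c, chr7:104465210-104465239 for Trim30a, chr7:104507871-104507900 for Trim30d and chr7:102565444-102565479 for Trim21, all on the minus strand. That of Trim26 is at chr17:36836976-36837011 on the plus strand and that of Trim2 at chr3:84212791-84212820 on the minus strand. Trim30a has a second listed start with the same match, and in Trim2 only 1 of 5 listed starts has one. In Trim21 and Trim26, 2 matches overlap each other. The window of Trim12a is the same as that in Trim5, and over 241 aligned bases the sequences of Trim5 and Trim12a were 100% identical. The 9 members with the letters had log2 fold changes of -0.40 to 0.46, with a median of 0.24, 7 of them positive and 2 called. The 23 tested members with an entry but without the letters had -0.39 to 0.56, with a median of 0.03, 13 of them positive and 0 called. Of all tested genes, 51.8% were positive and 6.46% were called. Of the 9, Trim5, Trim34a, Trim12a, Trim12c, Trim30a and Trim30d lie side by side on chromosome 7 and partly share sequence. They are thus not separate cases, and a link between the letters and the difference was not tested. A match is a run of letters and does not show that a factor binds there.

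Most of the interferon-inducible members lie side by side on chromosome 7. Between 104218795 and 104507853 (mm10, 289.1 kb) the order is Trim6, Trim34a, Trim5, Trim12a, Trim34b, Trim12c, Trim30b, Trim30c, Trim30a and Trim30d. All 9 tested genes of this stretch had a positive log2 fold change, between 0.09 and 0.56 with a median of 0.34, and 2 of them were called, where 51.8% of all tested genes were positive and 6.46% were called. The stretch was singled out after the values were seen, and its members share sequence.

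Trim12a, a mouse relative of primate TRIM5, measured 37.6, 47.1, 49.3 and 33.1 CPM in Sept2C111A libraries, against 31.4, 30.9, 31.0 and 36.1 CPM in wild-type libraries. Sept2C111A libraries 2 and 3 were the highest, and library 4 lay below wild-type library 4. The log2 fold change of 0.37 (SE 0.12) had an adjusted p of 0.093 in edgeR, and it was called, at 0.47 and an adjusted p of 0.012, without Sept2C111A library 4. Without Sept2C111A libraries 2 and 3 it was 0.13. Its neighbour Trim12c measured 30.8 ± 2.48 CPM in Sept2C111A and 28.9 ± 1.18 CPM in wild-type libraries, with a log2 fold change of 0.09 (95% interval -0.07 to 0.25). Of the 50-base windows, 20.8% in Trim12a and 33.0% in Trim12c also occur in another gene, most often in Trim5, so their separate values are uncertain too.

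Trim30a, which in mouse macrophages restrains Toll-like receptor signalling to NF-κB by removing TAB2 and TAB3, measured 124, 146, 116 and 123 CPM in Sept2C111A libraries, against 101, 121, 100.1 and 109 CPM in wild-type libraries. The groups overlapped through wild-type library 2, and Sept2C111A library 2 was the highest of all. Its log2 fold change of 0.24 (SE 0.087) had an adjusted p of 0.11 in edgeR. Trim30d measured 37.7, 43.3, 30.1 and 43.6 CPM in Sept2C111A libraries, against 27.1, 37.5, 30.1 and 32.4 CPM in wild-type libraries, and was not called (log2 fold change 0.28, adjusted p 0.20 in edgeR). In Trim30a and Trim30d, 6.53% and 7.49% of the windows are shared with other genes. Trim30c, at 8.06 ± 1.70 CPM in Sept2C111A and 6.36 ± 1.08 CPM in wild-type libraries, was not called either, nor were 2 members with few counts. Trim30b measured 0.811 ± 0.183 CPM in Sept2C111A and 0.758 ± 0.154 CPM in wild-type libraries, and Trim6 measured 1.56 ± 0.461 CPM in Sept2C111A and 1.06 ± 0.271 CPM in wild-type libraries.

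Trim14, an adaptor without a RING that binds the mitochondrial antiviral protein MAVS, measured 78.8, 99.6, 82.4 and 89.3 CPM in Sept2C111A libraries, against 69.5, 80.6, 67.0 and 74.2 CPM in wild-type libraries. Only wild-type library 2 reached into the range of the Sept2C111A libraries. The log2 fold change of 0.27 (SE 0.087) had an adjusted p of 0.092 in edgeR. Trim25, the ligase known for activating the RNA sensor RIG-I, measured 105, 118, 97.4 and 105 CPM in Sept2C111A libraries, against 92.5, 98.9, 84.2 and 92.7 CPM in wild-type libraries. Here too wild-type library 2 was the one that overlapped. Its log2 fold change was 0.21 (SE 0.074, adjusted p 0.12 in edgeR).

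Trim21, the cytosolic antibody receptor that sends antibody-coated virus to the proteasome, had the opposite sign. It measured 38.6, 42.1, 32.4 and 41.8 CPM in Sept2C111A libraries, against 44.7, 55.5, 44.5 and 46.1 CPM in wild-type libraries. No Sept2C111A library reached the wild-type range, and library 3 was the lowest. The log2 fold change of -0.30 (SE 0.10, 95% interval -0.52 to -0.08) had an adjusted p of 0.096 in edgeR. The exact two-sided permutation p of 0.0286 only restates that the groups did not overlap, as in 16.9% of all tested genes. Trim21 was called lower, at -0.33 and an adjusted p of 0.048 in edgeR, without Sept2C111A library 4. Trim21 lies on the same chromosome as the stretch above but outside it, at 102557920 to 102565482.

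**Figure D3:**
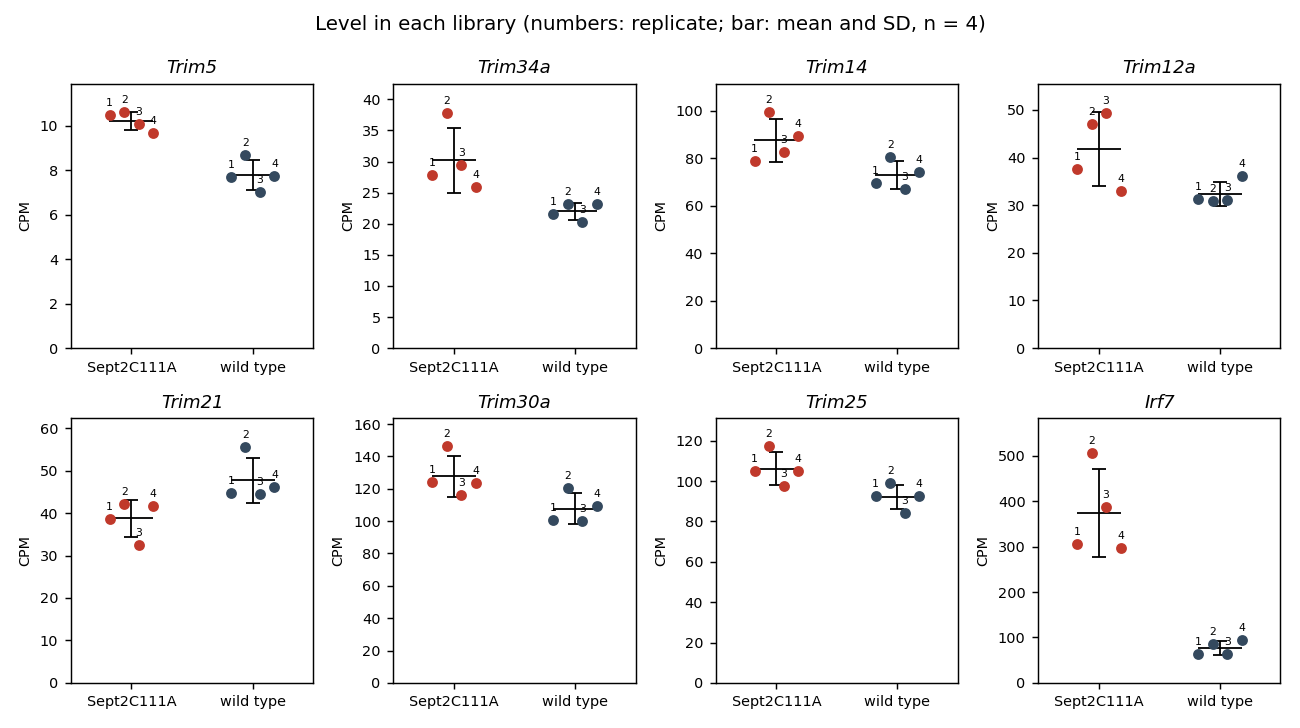
CPM in each library for the called Trim genes, the 5 uncalled ones with the smallest adjusted p, and Irf7; points are libraries, numbered by replicate, and bars give mean and SD (n = 4). Sept2C111A library 2 is the highest of its group for Trim5, Trim34a, Trim14, Trim21, Trim30a, Trim25 and Irf7, and the Trim differences are small beside that of Irf7.

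The list of interferon-inducible TRIM genes held 15 symbols with Pml, of which 14 were tested, all but Trim34b. Of these, 2 rose, 0 fell and 12 were not called; 12 had a positive and 2 a negative log2 fold change, those of Trim21 and Trim56. The median was 0.22, beside 0.01 over all tested genes, and 8 of the 14 had an unadjusted p under 0.05. Over all tested genes, 6.46% were called, 51.8% had a positive log2 fold change and 24.8% had an unadjusted p under 0.05. Both called genes lie in the stretch of chromosome 7 given above, whose members share sequence. Outside it, the log2 fold changes were 0.27 (Trim14), 0.21 (Trim25), 0.13 (Pml), 0.10 (Trim26), -0.30 (Trim21) and -0.39 (Trim56). Without Sept2C111A libraries 2 and 3, 0 of the 14 genes were called, where 3.86% of all genes were. Their median was then 0.16, with 10 positive values. Their levels also moved between libraries of 1 genotype. Among the 13 Trim members tested, 10 were highest in library 2 of the Sept2C111A group and 8 in library 2 of the wild-type group. Wild-type library 2 was also the lowest of its group for 3 of the 13. Over all 42 tested members, 13 were highest in Sept2C111A library 2 and 18 in wild-type library 2. The median deviation from the wild-type mean, on the log2 scale over the 14 genes, was 0.15, 0.42, 0.15 and 0.16 in Sept2C111A libraries 1 to 4, against -0.05, 0.09, -0.09 and 0.03 in wild-type libraries 1 to 4. Every Sept2C111A library was thus above the wild-type ones on this median. Summed stromal markers were 3508, 2925, 2723 and 3396 CPM in Sept2C111A libraries 1 to 4, against 4276, 3468, 4521 and 4276 CPM in wild-type libraries 1 to 4, and their part in the result was not tested.

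**Figure D4:**
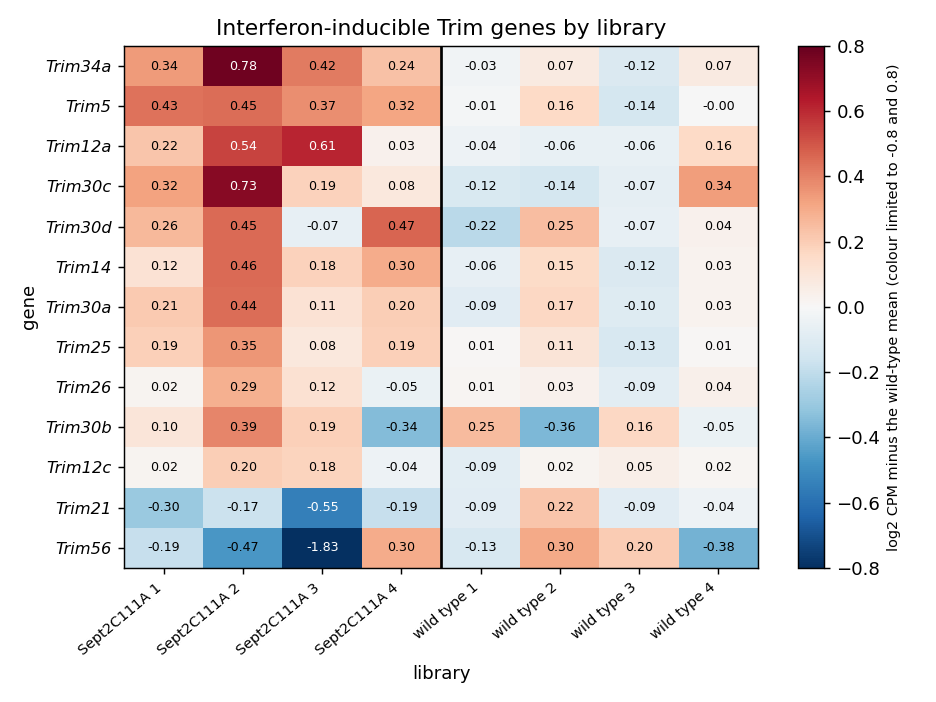
Log2 CPM minus the wild-type mean for the 13 tested interferon-inducible Trim genes (rows) in the 8 libraries (columns), with each value printed; colour is limited to -0.8 and 0.8. Most cells are above 0 in each Sept2C111A column, and library 2 is the highest of its group for 10 of the 13 genes. Trim21 is below 0 in all 4 Sept2C111A libraries and Trim56 is at -1.83 in Sept2C111A library 3.

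Trim56, known for acting on the DNA-sensing adaptor STING, was among the least even members. It measured 5.63, 4.61, 1.73 and 7.90 CPM in Sept2C111A libraries, against 5.87, 7.93, 7.40 and 4.92 CPM in wild-type libraries. The groups overlapped, and Sept2C111A library 3 was the lowest. The log2 fold change of -0.39 had a 95% interval of -1.12 to 0.34, wider than a 2-fold fall at its lower end. Trim26, an interferon-inducible member of the histocompatibility region, measured 76.0 ± 7.93 CPM in Sept2C111A and 70.9 ± 2.80 CPM in wild-type libraries, with a log2 fold change of 0.10 (95% interval -0.07 to 0.27).

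Among the 23 tested genes of the PRY-SPRY list, 2 rose, 0 fell and 21 were not called. In this list 20 had a positive log2 fold change and the median was 0.11. Of all tested genes 6.46% were called and 51.8% were positive, so the count of calls was near the share of all genes. Trim14 and Trim16 also carry the domain but lack a RING, and they were listed apart, with log2 fold changes of 0.27 and -0.30. The COS-box members Trim36 (-0.29) and Trim46 (-0.02) carry it as well and were listed apart too. The count of 20 positive values among 23 thus leaves out these members, of which only Trim14 was positive, and it holds for the list as drawn. Listed PRY-SPRY genes outside the interferon list include Trim17, which shares 17.7% of its windows with the histone gene Hist3h2a. Trim17 measured 8.92 ± 1.83 CPM in Sept2C111A and 6.72 ± 0.965 CPM in wild-type libraries (log2 fold change 0.41, adjusted p 0.15 in edgeR). Trim62 had the smallest difference among the members whose groups did not overlap, at 9.23 ± 0.220 CPM in Sept2C111A and 8.60 ± 0.340 CPM in wild-type libraries. Trim35 measured 109.0, 100.3, 100.6 and 112.8 CPM in Sept2C111A libraries, against 105.4, 108.5, 105.5 and 107.7 CPM in wild-type libraries, with a log2 fold change of -0.01 (95% interval -0.15 to 0.12). The wild-type values all fell inside the Sept2C111A range. Trim7, Trim11, Trim27, Trim39, Trim41, Trim47, Trim65 and Trim68 had log2 fold changes of -0.11 to 0.14, and none of them was called.

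The TIF1 members carry a PHD finger and a bromodomain and act as nuclear cofactors, and all 4 were tested with none called. Trim28, the corepressor (KAP1) that silences retroelements with zinc-finger proteins, measured 145, 143, 165 and 128 CPM in Sept2C111A libraries, against 155, 137, 143 and 153 CPM in wild-type libraries. The libraries of both genotypes were interleaved. Its log2 fold change was -0.02 (95% interval -0.20 to 0.16), and those of Trim24, Trim33 and Trim66 were -0.04, -0.05 and -0.25.

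The remaining groups had no called member. Trim8, a ligase that takes part in TNF signalling to NF-κB, measured 109 ± 3.36 CPM in Sept2C111A and 106 ± 1.17 CPM in wild-type libraries. Its log2 fold change was 0.04, and its 95% interval of -0.07 to 0.16 was the narrowest of the family. Trim59, a membrane-anchored member, measured 3.88, 3.13, 3.61 and 4.16 CPM in Sept2C111A libraries, against 4.87, 4.48, 4.62 and 4.44 CPM in wild-type libraries, with no overlap and a log2 fold change of -0.31 (adjusted p 0.15 in edgeR). Trim36, of the microtubule-associated COS-box group, also had groups that did not overlap, at 4.30 ± 0.163 CPM in Sept2C111A and 5.27 ± 0.603 CPM in wild-type libraries (log2 fold change -0.29, adjusted p 0.16 in edgeR). The other COS-box member tested, Trim46, was at -0.02. The NHL-repeat genes Trim2, Trim3 and Trim32 had log2 fold changes of -0.40, 0.06 and -0.11, and Trim16 and Trim44, which lack a RING, had -0.30 and -0.11. Trim13, Trim23, Trim37 and Trim45 had -0.04, 0.28, 0.16 and 0.01.

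Levels are compared between genes per kilobase of the longest protein-coding GENCODE transcript (RPKM). The tested members spanned 0.0597 to 50.7 RPKM over the 8 libraries, with 17 at 10 RPKM or more, 17 from 1 to 10 and 8 under 1. Trim14 was first, at 55.3 ± 5.78 RPKM in Sept2C111A and 46.0 ± 3.79 RPKM in wild-type libraries. Trim28 followed, at 44.8 ± 4.66 RPKM in Sept2C111A and 45.3 ± 2.65 RPKM in wild-type libraries, and in wild-type libraries it did not differ from Trim14 beyond the spread. Trim30a was at 33.8 ± 3.43 RPKM in Sept2C111A and 28.6 ± 2.55 RPKM in wild-type libraries. Trim8 had 30.5 ± 0.940 RPKM in Sept2C111A and 29.6 ± 0.326 RPKM in wild-type libraries, and Trim35 had 28.7 ± 1.70 RPKM in Sept2C111A and 29.0 ± 0.427 RPKM in wild-type libraries. In wild-type libraries the ranges of mean ± SD of Trim30a, Trim8 and Trim35 overlapped. The called members stood lower, with Trim34a at 11.7 ± 2.02 RPKM in Sept2C111A and 8.51 ± 0.528 RPKM in wild-type libraries. Trim5 was at 2.80 ± 0.114 RPKM in Sept2C111A and 2.13 ± 0.186 RPKM in wild-type libraries. The transcript that each gene uses in these cells was not measured, which limits this order.

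The 17 members that did not pass the filter were Trim9, Trim10, Trim15, Trim29, Trim31, Trim34b, Trim38, Trim43a, Trim43b, Trim43c, Trim54, Trim63, Trim67, Trim69, Trim71, Trim72 and Trim75. None had more than 8 counts in any library, 4 of them had 0 in all Sept2C111A libraries and 1, Trim71, had 0 in all wild-type libraries. A count of 0 allows a level of up to 0.142 to 0.159 CPM in Sept2C111A and 0.140 to 0.143 CPM in wild-type libraries (3 counts, counting error only). Trim38, which in mouse regulates antiviral and inflammatory signalling, had 0 counts in each Sept2C111A library and 0, 2, 2 and 0 in wild-type libraries.

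TRIM proteins listed under other symbols were not called either. Pml, which builds nuclear bodies and is interferon inducible, measured 77.0 ± 5.45 CPM in Sept2C111A and 70.3 ± 3.41 CPM in wild-type libraries. Mid1, a microtubule-associated ligase, measured 48.2 ± 3.14 CPM in Sept2C111A and 56.8 ± 2.89 CPM in wild-type libraries, without overlap (adjusted p 0.065 in edgeR). Mefv, which encodes the inflammasome protein pyrin, measured 18.5 ± 0.824 CPM in Sept2C111A and 15.7 ± 0.867 CPM in wild-type libraries, also without overlap (adjusted p 0.087 in edgeR). Mid2, a relative of Mid1, measured 0.991 ± 0.318 CPM in Sept2C111A and 1.36 ± 0.326 CPM in wild-type libraries.

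Of the 18 genes for E2 enzymes, the E1 enzyme and ubiquitin, 1 rose, 1 fell and 16 were not called, with a median log2 fold change of 0.04, where 6.46% of all tested genes were called. Ube2l6, the E2 enzyme of the ubiquitin-like modifier ISG15, rose to 99.4 ± 17.0 CPM in Sept2C111A libraries, against 68.8 ± 2.55 CPM in wild-type libraries (log2 fold change 0.53, SE 0.11, adjusted p 0.017 in edgeR). Ube2e2 fell to 8.97 ± 0.601 CPM in Sept2C111A libraries, against 12.2 ± 0.868 CPM in wild-type libraries (adjusted p 0.017). The list of signalling genes whose proteins TRIM ligases act on held 19 entries, of which 18 were tested. The gene for RIG-I was not found among the symbols. Of the 18, 1 rose, 0 fell and 17 were not called, with a median of -0.02, a count near the 6.46% of all tested genes. The one that rose was Irf7, an interferon regulatory factor, with 305, 507, 386 and 297 CPM in Sept2C111A libraries, against 63.1, 84.9, 64.3 and 93.6 CPM in wild-type libraries. Its fold change was 4.89 (adjusted p 0.00028 in edgeR), beside at most 1.47 for any tested Trim gene.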

How the data were processed

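The authors deposited expected counts per gene symbol, 1 file per library (8 in all). Per the submitters' processing notes, the build was mm10 and the tools included RSEM 1.3.1, Bowtie2 and DESeq2 1.4.5, with no roles stated; the RNA was enriched with oligo(dT), per the labels' protocols. The gene annotation and the strand setting were not given in the sources, so reads of antisense genes cannot be told apart. Counts were rounded, filtered with filterByExpr (minimum count 10) and scaled by TMM. Sept2C111A over wild type was fitted on all 12462 genes left with the quasi-likelihood test of edgeR 4.0.16 (R 4.3.3), two-sided, group as the only term, Benjamini-Hochberg adjustment over all of them. Intervals are the fold change ± t × SE at 95%. Alternatives used DESeq2 1.42.0, limma voom (limma 3.58.1), other scalings, filters and thresholds, a replicate block, and libraries left out. The script of the main test was tested on simulated data with known changes, which checks the script and not the calls made here.

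Coordinates and promoters come from RefSeq (GRCm38.p6, the mm10 build) and lengths from GENCODE M21 transcripts. All 59 symbols matched for coordinates and lengths, and 46 had a promoter entry. Members and lists were chosen with earlier results of these data known. The text names every called member, the 5 uncalled with the smallest adjusted p and the 5 uncalled with the highest RPKM; other members are named to account for the family, after their values were seen. Pairs of libraries within a group differed beyond sampling noise (chi-square per gene of 4.26 or more), so none was a copy. Totals of 19543958 to 21288493 set the depth.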

Additional observations from a re-analysis of the deposited data

Results flagged for a closer look

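Within 84 groups of 4 libraries (42 tested members, each genotype), 6 values stood apart from the other 3 of their group, where chance gives about 1 in 20 groups. All 6 were wild-type values. Trim12a was 36.1 CPM in wild-type library 4, with the next at 31.4 CPM. Trim30c was 7.97 CPM in the same library, with the next at 5.99 CPM. Trim21 was 55.5 CPM in wild-type library 2, with the next at 46.1 CPM, and Trim41 was 53.8 CPM there, with the next at 52.8 CPM. Trim17 was lowest in wild-type library 3, at 5.28 CPM against 7.09 CPM, and Trim46 in wild-type library 1, at 2.72 CPM against 3.12 CPM.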

How the results depend on the processing

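RLE and upper-quartile scaling, both other filters, DESeq2 and limma voom each gave the same 2 members higher and 0 lower. Over all genes, the count called was 805, and it was 1428 in DESeq2. It was 494 with the replicate block, 492 without Sept2C111A libraries 2 and 3, 1626 at an adjusted p under 0.10 and 220 at 0.01. Members called higher numbered 0 with the block, without those 2 libraries and at 0.01, and 4 at 0.10, where 1 was lower. Leaving out 1 library gave 266 to 2077 genes, 0 to 4 members higher and 0 to 1 lower, with a median log2 fold change of 0.0333 to 0.0955 over the members. The 4 higher were called without Sept2C111A library 4, when 16.5% of all genes were. The median was 0.0335 without Sept2C111A libraries 2 and 3. Trim28, at -0.02, ran from -0.0810 to 0.0457 with 1 library left out, and Trim35, at -0.01, from -0.0423 to 0.0138, and was at 0.0551 without Sept2C111A libraries 2 and 3; neither was called in any. With the replicate block, Trim5 and Trim34a had log2 fold changes of 0.40 and 0.45 and adjusted p of 0.071 and 0.052. The labels do not say whether same-numbered libraries were paired. Their deviations from the group mean correlated at 0.14, 0.10, -0.02 and -0.24, and only library 1 correlated best with its own number. Deviations within a group of 4 are tied to each other, so these values cannot decide whether the libraries were paired. The cause of these differences was not tested.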

Other observations

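Some signalling genes whose proteins TRIM ligases act on are given here from the same libraries. They were picked from the list of signalling genes after its values were seen. Nod2, Sting1 and Ikbkg had the smallest p in edgeR among its uncalled genes. Irf7, the only called gene of that list, is given above and left out here, so none of those picked was called. The gene for RIG-I, the partner of Trim25, was not found among the symbols. Nod2, the sensor of bacterial cell wall fragments, measured 34.5 ± 6.14 CPM in Sept2C111A and 46.2 ± 3.19 CPM in wild-type libraries (n = 4 each), without overlap and with an adjusted p of 0.058 in edgeR. Sting1, the DNA-sensing adaptor on which Trim56 is known to act, measured 63.9 ± 7.29 CPM in Sept2C111A and 53.3 ± 3.96 CPM in wild-type libraries, with overlap (adjusted p 0.10 in edgeR). Ikbkg, the regulatory subunit of the IκB kinase, measured 66.8 ± 6.63 CPM in Sept2C111A and 78.7 ± 5.51 CPM in wild-type libraries, without overlap (adjusted p 0.11 in edgeR). Of all tested genes, 16.9% had groups that did not overlap. For Mavs, the partner of Trim14, the 95% interval of the log2 fold change was -0.15 to 0.26. Tab2, a known target of Trim30a, had a 95% interval of -0.30 to 0.04, and Tab3, the other, one of -0.15 to 0.46.

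Over all 42 tested members, the median deviation from the wild-type mean on the log2 scale was 0.07, 0.10, 0.10 and 0.02 in Sept2C111A libraries 1 to 4, against -0.01, 0.03, -0.02 and 0.00 in wild-type libraries 1 to 4. Sept2C111A library 4 lay inside the wild-type range on this measure.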
